A study of Mus musculus with 48 samples.

Results

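Valproic acid (VPA) was compared with saline in the liver of wild type (WT) male mice. The 16 mice whose labels give the WT genotype, 8 with VPA and 8 with saline, were taken from 48 mice in all, and the other 32 were Wfs1 heterozygous (HZ) and knockout (KO) mice given the same 2 treatments. Wfs1 encodes wolframin, which sits in the membrane of the endoplasmic reticulum, and the WT mice carried both intact copies (Wfs1 +/+). VPA was injected intraperitoneally at 300 mg/kg each day for 12 weeks, and the other WT mice were injected with saline at 10 mL/kg. Age at the first injection was 4 to 6 weeks, and age at killing was 16 to 18 weeks. All 16 mice, with either injection, also received glucose (2 g/kg) for a tolerance test, 24 hours from the final dose of VPA and 24 hours ahead of killing, so the livers were taken 48 hours after that dose. The hour of the day at which each liver was taken is not given in the sources used here.

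VPA is an anticonvulsant and mood stabiliser, a branched short-chain fatty acid that inhibits histone deacetylases and is broken down in the liver partly by mitochondrial beta-oxidation. The hepatic circadian clock is a transcriptional loop in which the activators Arntl (Bmal1) and Clock bind E-box sequences and drive their own repressors, the Per and Cry genes and the nuclear receptors Nr1d1 and Nr1d2 (REV-ERB alpha and beta). Dbp, Tef and Hlf are activators of the PAR bZIP family that bind D-box sequences in output genes, and Nfil3 is a repressor that competes for the same sequences. Many genes of the activator arm and of the repressor arm, though not all, peak at opposite times of day. Ppard encodes PPAR delta, a lipid-sensing nuclear receptor that acts with the retinoid X receptors on genes of fatty acid handling.

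Among named genes that passed in WT liver, the largest differences were in clock genes, Chka and Ppard. In the limma fit, 25 of 35556 probesets, or 0.0703%, passed an adjusted p of 0.05, of which 18 (0.0506%) rose and 7 (0.0197%) fell with VPA. Of these, 19 carry 1 gene symbol each: Arntl, Chka, Ppard, Nfil3, Pdgfc, Asap2, Loxl4, Spon2, Mad2l2, Dnmt3b, Lnx2 and Pnrc1 rose, and Dbp, Per3, Tef, Nr1d2, Sbk1, Hspa8 and Eif4b fell. The 19 came from 21789 probesets with 1 symbol. Of the 19 genes, 6 belong to the clock lists, namely Arntl, Nfil3, Dbp, Per3, Tef and Nr1d2. The clock lists held 17 measured genes and were chosen with earlier results of these data known. At an unadjusted p of 0.05 the count was 1973 probesets (5.55%), and the median difference over all probesets was -0.01 on the log2 scale. The groups did not overlap for 7 of the 25 probesets, against 16 of all 35556 (0.045%). The 25 were picked by their difference between these same mice, so a higher share among them is in part set by that choice.

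The bases before the transcription start are shown for 4 of these genes. Tef, Per3 and Nr1d2 were picked because each holds a sequence that the clock or nuclear receptors are known to bind. Ppard, the nuclear receptor gene that rose, holds none of the 3 motifs searched, and neither do Arntl, Dbp, Chka and others. Each line gives the 250 bases before the start listed by RefSeq on GRCm38.p6, 5′ to 3′ on the gene's own strand. The capitals mark the E-box CACGTG in Tef (chr15:81802423-81802672, plus strand), the D-box TTATGTAA in Per3 (chr4:151044666-151044915, minus strand) and the half-site AGGTCA in Nr1d2 (chr14:18239107-18239356, minus strand). The Ppard window is chr17:28232504-28232753 on the plus strand.
Tef: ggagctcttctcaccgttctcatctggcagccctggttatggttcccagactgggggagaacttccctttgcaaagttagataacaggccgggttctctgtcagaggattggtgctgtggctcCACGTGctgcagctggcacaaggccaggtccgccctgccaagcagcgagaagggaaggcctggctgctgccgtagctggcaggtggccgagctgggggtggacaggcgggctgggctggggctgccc
Per3: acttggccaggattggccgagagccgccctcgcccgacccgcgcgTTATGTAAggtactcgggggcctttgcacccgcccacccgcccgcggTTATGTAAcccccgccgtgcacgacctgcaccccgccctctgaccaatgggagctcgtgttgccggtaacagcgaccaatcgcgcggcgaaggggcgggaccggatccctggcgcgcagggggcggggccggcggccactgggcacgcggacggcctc
Nr1d2: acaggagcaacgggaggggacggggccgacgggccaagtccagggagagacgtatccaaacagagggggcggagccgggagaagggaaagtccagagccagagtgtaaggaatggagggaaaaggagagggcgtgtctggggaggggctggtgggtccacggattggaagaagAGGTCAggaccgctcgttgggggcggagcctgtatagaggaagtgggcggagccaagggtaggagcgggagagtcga
Ppard: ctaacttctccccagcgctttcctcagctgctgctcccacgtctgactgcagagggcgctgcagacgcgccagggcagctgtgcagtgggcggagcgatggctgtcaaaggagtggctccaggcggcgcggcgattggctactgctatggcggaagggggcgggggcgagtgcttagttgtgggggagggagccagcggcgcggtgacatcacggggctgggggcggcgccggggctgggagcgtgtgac

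Of the 19 genes, 15 have a promoter in the RefSeq table, with 18 windows between them. The E-box was in 2 of these windows, the D-box in 1 and the half-site in 3. The E-box CACGTG was found only in Tef, 127 bases before the start shown, while 6.02% of all 32851 promoter windows of 250 bases hold it. The D-box, searched as TTATGTAA or TTACGTAA, was found only in Per3, at 205 and 158 bases before the start, against 0.931% of all windows. The half-site AGGTCA was found in Nr1d2 (77 bases before the start), Nfil3 (12 bases) and Pnrc1 (63 bases), against 14.0% of all windows. Both strands were searched, and none of the 3 motifs contains another. These matches describe the letters in the windows and show no binding.

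Among the clock activators, Arntl, the partner of Clock, was higher in every VPA treated mouse than in any saline treated mouse. Its log2 values ran from 8.73 to 9.72 with a median of 9.27 in the 8 VPA treated mice, against 7.05 to 8.65 with a median of 7.80 in the 8 saline treated mice. The means were 9.25 ± 0.32 in VPA treated mice and 7.75 ± 0.60 in saline treated mice (SD, n = 8 each). The difference was 1.50 (SE 0.23), or 2.83-fold, with an adjusted p of 0.000232 in limma and the smallest p that the exact permutation test over the 16 mice allows, 0.000155. Clock itself differed by 0.18 (95% interval -0.02 to 0.38) and Rora, a nuclear receptor that activates Arntl, by 0.18, and neither passed.

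Among the output factors, Dbp, the albumin D-box binding protein, had the largest difference of all genes with 1 symbol. Its log2 values ran from 6.87 to 8.25 with a median of 7.66 in VPA treated mice, against 8.15 to 10.38 with a median of 9.93 in saline treated mice. Dbp fell by 2.07 on the log2 scale (SE 0.29), and the saline treated mice had 4.19-fold the level of the VPA treated mice (limma, adjusted p = 4.97e-05, and two-sided exact permutation p = 0.000466). The groups overlapped through 1 saline treated mouse, replicate 1 at 8.15. Tef, the thyrotroph embryonic factor of the same family, averaged 8.71 ± 0.24 in VPA treated mice and 9.60 ± 0.31 in saline treated mice and fell by 0.90 (SE 0.13, adjusted p = 0.000147 in limma, SD and n = 8 each). Its values of 8.38 to 9.05 in VPA treated mice met those of 8.98 to 9.88 in saline treated mice only at the edge. Hlf, the hepatic leukemia factor, differed by -0.43 (SE 0.10) and did not pass (adjusted p = 0.0716). Nfil3, the repressor that opposes these factors, rose by 0.93 (SE 0.13, adjusted p = 4.97e-05), with 8.65 to 9.34 in VPA treated mice and 7.71 to 8.70 in saline treated mice.

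**Figure D1:**
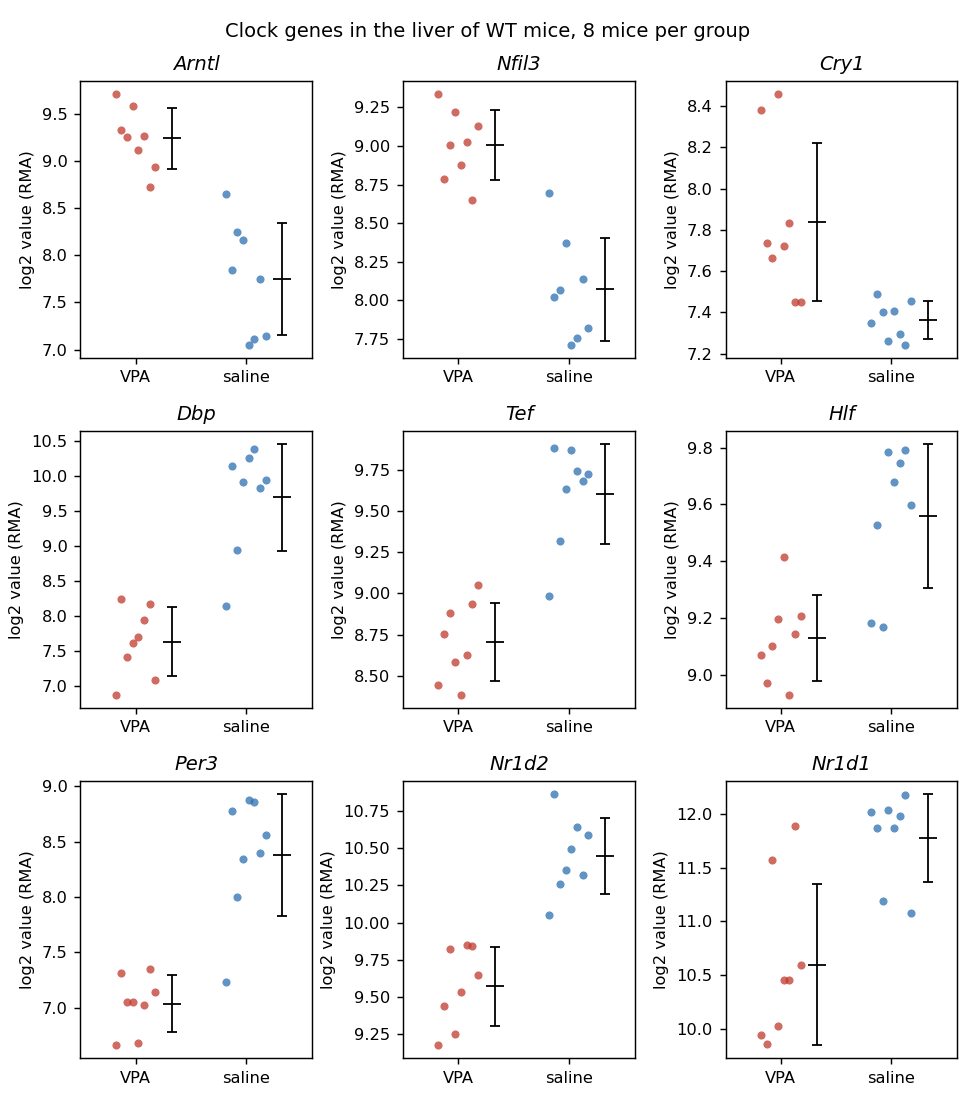
The log2 values of 9 clock genes in the liver of each WT mouse are plotted as points, VPA in red and saline in blue, with the mean ± SD of the 8 mice of a group in black. Each panel has its own axis. Arntl and Nfil3 sit higher with VPA and Dbp, Tef, Per3 and Nr1d2 sit lower, while Cry1, Hlf and Nr1d1 did not pass. Only the values of Arntl and Nr1d2 do not overlap between the groups.

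Among the clock repressors, Per3 and Nr1d2 fell. Nr1d2 ran from 9.17 to 9.85 with a median of 9.59 in VPA treated mice, against 10.05 to 10.87 with a median of 10.43 in saline treated mice. The groups did not overlap, and the fall was 0.88 on the log2 scale (SE 0.12, adjusted p = 4.97e-05 in limma, exact permutation p = 0.000155). Per3, a period gene, ran from 6.66 to 7.35 in VPA treated mice and from 7.23 to 8.87 in saline treated mice, a difference of -1.34 (SE 0.24, adjusted p = 0.00351). Again only saline replicate 1, at 7.23, lay among the VPA treated mice.

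The other repressors did not pass. Ciart, a repressor of Clock and Arntl, differed by -1.65 (SE 0.41, adjusted p = 0.134) and ranged from 5.50 to 7.00 in VPA treated mice and from 5.97 to 9.11 in saline treated mice. Nr1d1 differed by -1.18 (SE 0.31, adjusted p = 0.168), with 2 of the 8 VPA treated mice at or above 11.57 and the other 6 at or below 10.60. Per1 differed by -0.93, Bhlhe41 by -0.69, Bhlhe40 by -0.62, Per2 by -0.61 and Cry2 by -0.26. Cry1 was the only repressor with a positive difference, 0.48 (SE 0.16, adjusted p = 0.518). Over the 10 repressors 0 rose and 2 fell, the median difference was -0.78 against -0.01 over all 19938 genes, and all 10 had an unadjusted p under 0.05 against 6.14% of all genes. Over the 3 clock lists together, 17 of 19 genes were measured, 2 rose and 4 fell, and 16 of the 17 had an unadjusted p under 0.05.

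The clock genes were summarised for each mouse by an index, the mean log2 value of Arntl and Clock and, with the sign turned, of Dbp, Tef, Per2, Per3, Nr1d1, Nr1d2 and Ciart, each first centred on its mean over all 48 mice. The index averaged 0.97 ± 0.21 in VPA treated WT mice (0.64 to 1.35) and -0.17 ± 0.43 in saline treated WT mice (-0.60 to 0.64, SD, n = 8 each). The saline treated mice were spread over a wider range than the VPA treated mice. Saline replicate 1 (0.64) and saline replicate 3 (0.27) stood highest among the saline treated mice, and replicate 1 was level with the lowest VPA treated mouse. Without saline replicate 1 the count of probesets that passed was 77, and without both it was 75, and both sets held all 25. With the index as a covariate in the fit, 0 probesets passed (limma), the difference of Arntl was 0.13, that of Dbp was -0.27 and that of Ppard was 0.74, each with an adjusted p of 0.999. The index is made from genes that were themselves tested, and VPA and clock state cannot be told apart in this design.

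**Figure D2:**
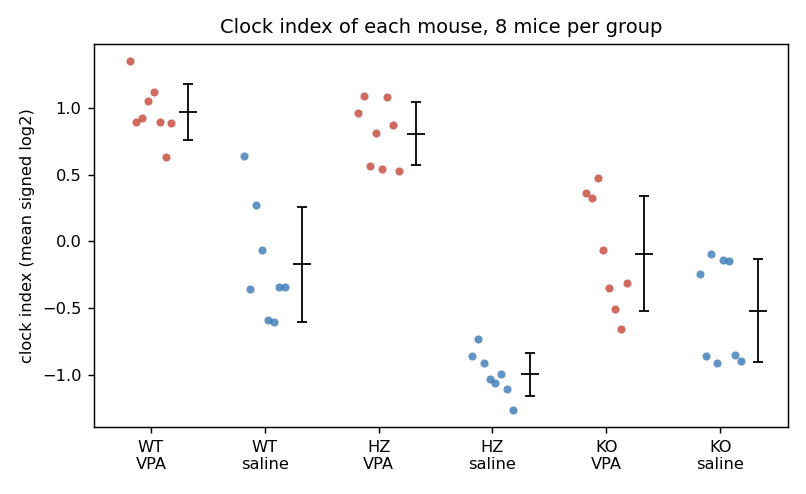
The clock index of each mouse is plotted as a point for the 6 groups, VPA in red and saline in blue, with the mean ± SD of the 8 mice in black. VPA treated WT mice lie between 0.64 and 1.35, and saline treated WT mice lie between -0.60 and 0.64, while the lowest values are those of saline treated HZ mice, from -1.27 to -0.74.

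Downstream of the clock, none of the 15 measured rhythmic output genes passed. Among these 15 genes, chosen with earlier results of these data known, the median difference was -0.29. An unadjusted p under 0.05 was found for 12 of the 15, or 80%, against 6.14% of all genes. Of these 12, 3 had a positive and 9 a negative difference. Usp2, a deubiquitinase, was the most negative of the 15 at -1.07 (SE 0.31, adjusted p = 0.290), with 6.90 to 7.80 in VPA treated mice and 7.62 to 9.33 in saline treated mice. Elovl3, a fatty acid elongase, was the most positive at 1.03 (SE 0.57, adjusted p = 0.949), with 11.64 to 13.08 in VPA treated mice and 11.03 to 11.63 in saline treated mice. The values of Elovl3 did not overlap between these groups, while the SE rests on its spread within all 6 groups. Both genes were picked as the extremes of their list after their values were seen.

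Ppard (chr17:28232754-28301469, GRCm38.p6) was the only receptor of its list that passed. Its log2 values ran from 8.46 to 10.04 with a median of 9.54 in VPA treated mice, against 8.14 to 8.49 with a median of 8.40 in saline treated mice. In 7 of the 8 VPA treated mice Ppard was above every saline treated mouse, and VPA replicate 7, at 8.46, lay within the saline range. The rise was 1.10 (SE 0.15), or 2.14-fold, with an adjusted p of 4.97e-05 in limma and a two-sided exact permutation p of 0.000622. The SD was 0.55 in VPA treated mice and 0.14 in saline treated mice, so the VPA treated mice differed more among themselves. Their values were 9.91, 9.91, 9.78 and 10.04 in replicates 1 to 4 and 9.31, 9.29, 8.46 and 8.95 in replicates 5 to 8. Whether the level follows an order of the replicate numbers was not tested. VPA replicate 7 also had the lowest clock index of the VPA treated mice, 0.64.

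Ppara, the receptor that drives fatty acid oxidation in fasting liver, differed the other way, by -0.40 (SE 0.09), and narrowly missed the threshold (adjusted p = 0.0517). It ran from 10.82 to 11.36 in VPA treated mice and from 11.13 to 11.79 in saline treated mice. Its adjusted p was 0.0331 when only probesets with 1 symbol were tested. Pparg differed by 0.00 (95% interval -0.37 to 0.36), and Rxra, the main retinoid X receptor of hepatocytes, by -0.17. Of 26 measured PPAR target and fatty acid oxidation genes none passed, while among all 19938 genes 12 rose and 6 fell. The median difference of the 26 was -0.08, and 6 of them (23.1%) had an unadjusted p under 0.05, against 6.14% of all genes. Pdk4, which inhibits pyruvate dehydrogenase, had the largest of these differences, 1.19 (95% interval 0.51 to 1.87, adjusted p = 0.243), with 9.41 to 10.69 in VPA treated mice and 8.22 to 10.41 in saline treated mice. Cyp4a14 differed by 0.92, Angptl4 by -0.61 and Cpt1a, the gate of mitochondrial fatty acid import, by -0.31.

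The study related Ppard to Wfs1 by qRT-PCR over mice of all genotypes. Here the array values of both genes were set side by side within the WT mice of each treatment, so the method and the mice differ from that relation. Wfs1 averaged 8.48 ± 0.31 in VPA treated mice and 8.43 ± 0.10 in saline treated mice (SD, n = 8 each). The difference was 0.04 with a 95% interval of -0.16 to 0.24 (two-sided exact permutation p = 0.730). The VPA treated mice ran from 7.94 to 8.98 and enclosed all saline treated mice, at 8.24 to 8.60. By qRT-PCR over all genotypes the study reported higher Wfs1 with VPA. It also reported that the array showed no loss of Wfs1 in KO mice, and on this probeset saline treated KO mice averaged 8.28. The study attributed this to the exons left intact in KO mice, and its exon analysis found lower expression of the disrupted exons. The interval of -0.16 to 0.24 spans changes either way, so the difference near 0 here does not show that VPA leaves Wfs1 unchanged. Within the 8 VPA treated mice Ppard and Wfs1 correlated with Pearson's r = 0.48 (exact p = 0.238) and Spearman's rho = 0.62 (exact p = 0.115), and r was 0.29 without the 2 mice farthest from the median of Wfs1. Within the 8 saline treated mice r was -0.58 (exact p = 0.153, rho = -0.52, exact p = 0.197) and -0.06 without the 2 farthest mice. Ppard against the clock index gave r = 0.66 (exact p = 0.0713) and rho = 0.69 (exact p = 0.0694) in VPA treated mice, with r = 0.17 without the 2 farthest. In saline treated mice it gave r = 0.25 (exact p = 0.568) and rho = 0.29 (exact p = 0.501), with r = -0.67 without the 2 farthest. None of these 4 relations passed, and the lowest adjusted p was 0.285 for r and 0.230 for rho, by permutation.

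Chka, choline kinase alpha, which starts phosphatidylcholine synthesis, was the second largest rise among genes with 1 symbol. Its log2 values ran from 9.51 to 10.94 with a median of 10.20 in VPA treated mice, against 8.13 to 9.48 with a median of 8.84 in saline treated mice, and the groups did not overlap. The rise was 1.30 (SE 0.22), or 2.46-fold (adjusted p = 0.00184 in limma, exact permutation p = 0.000155). Pdgfc, a platelet-derived growth factor, rose by 0.74 (SE 0.14, adjusted p = 0.00933), with 8.29 to 9.19 in VPA treated mice and 7.64 to 8.81 in saline treated mice. Asap2, an Arf GTPase-activating protein, rose by 0.73 (SE 0.12, adjusted p = 0.000829). Dnmt3b, a de novo DNA methyltransferase, rose by 0.43 (SE 0.08, adjusted p = 0.0075), with 7.23 to 7.61 in VPA treated mice and 6.67 to 7.34 in saline treated mice.

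**Figure D3:**
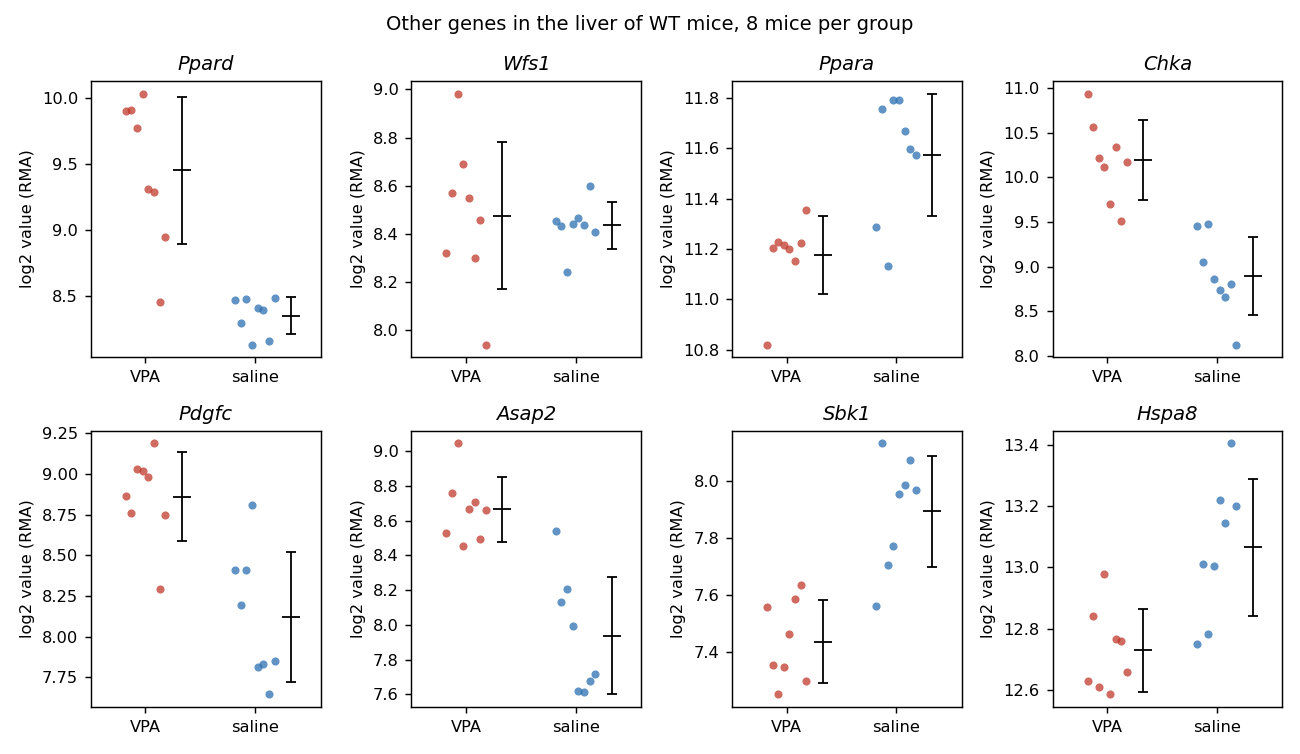
The log2 values of Ppard, Wfs1, Ppara, Chka, Pdgfc, Asap2, Sbk1 and Hspa8 in the liver of each WT mouse are plotted as points, VPA in red and saline in blue, with the mean ± SD of the 8 mice of a group in black. Each panel has its own axis. Ppard reaches 10.04 in VPA treated mice against 8.49 at most in saline treated mice, while the Wfs1 values of the groups overlap.

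The remaining named genes that passed moved by at most 0.70 on the log2 scale. Loxl4, a lysyl oxidase like enzyme of the extracellular matrix, rose by 0.70 (adjusted p = 0.0343), with 7.04 to 8.57 in VPA treated mice and 6.93 to 7.40 in saline treated mice. Spon2, a secreted matrix protein, rose by 0.66, Mad2l2, a subunit of a translesion polymerase, by 0.43, Lnx2, a ubiquitin ligase, by 0.40 and Pnrc1, a nuclear receptor coregulator, by 0.34. Pnrc1 was small in size but separate, with 10.03 to 10.39 in VPA treated mice and 9.65 to 10.02 in saline treated mice. Sbk1, a serine/threonine kinase, fell by 0.46 (SE 0.09, adjusted p = 0.022), and Eif4b, an initiation factor of translation, fell by 0.28 (SE 0.06, adjusted p = 0.0377). Hspa8, the constitutive heat shock chaperone, fell by 0.34 on probeset 10368025 (adjusted p = 0.0466) and differed by -0.31 on probeset 10528021, which did not pass (adjusted p = 0.0517). Hspa8 has near-identical copies in the genome, so these probesets may not be specific to it.

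Whether these genes passed depended on which mice were in the fit, while their differences kept their sign. When a mouse was left out in turn, Arntl, Asap2, Chka, Dbp, Dnmt3b, Nfil3, Nr1d2, Pdgfc, Per3, Ppard and Tef passed in all 16 fits, but Hspa8 passed in 3, Loxl4, Pnrc1 and Spon2 in 5, Mad2l2 in 6, Sbk1 in 7, Eif4b in 8 and Lnx2 in 15. Over those fits the difference ran from 0.31 to 0.37 for Pnrc1, from 0.60 to 0.82 for Loxl4 and from -0.31 to -0.25 for Eif4b. Fitted on the 16 WT arrays alone, where the differences are the same and only the estimate of the spread changes, 8 of the 19 genes passed, the 6 clock genes with Chka and Ppard.

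Another 6 probesets passed, all with a rise. One of them, 10443463, carries several symbols, and the other 5 are unnamed here. Probeset 10345675 had the largest difference of all 35556, 2.23 (SE 0.32), with means of 9.61 ± 0.54 in VPA treated mice and 7.38 ± 0.65 in saline treated mice (SD, n = 8 each) and no overlap. Probesets 10556487 and 10510270 also did not overlap and rose by 1.06 and 0.57.

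The VPA effects in WT liver were set beside those of the same probesets in the HZ and KO mice. The VPA effect of all 25 probesets had the same sign in HZ mice as in WT mice, against 65.5% of all probesets, and 24 of the 25 also passed in HZ mice, against 10.5% of all. In KO mice 22 of the 25 had the same sign as in WT mice, against 61.2% of all, and none passed, against 0.0112% of all (4 probesets). In HZ mice 17 of the 25 effects were larger in size than in WT mice, a share close to the 72.4% of all probesets, among them Arntl (2.36 in HZ mice), Chka (2.22), Dbp (-3.05) and Per3 (-2.40). Ppard was smaller, with an effect of 1.10 in WT, of 0.69 in HZ and of 0.18 in KO mice. In KO mice all 25 effects were smaller in size than in WT mice, against 47.5% of all probesets. In KO mice Arntl had an effect of 0.69, Dbp of -0.65 and Nr1d2 of -0.17. The 25 were chosen by their effect in WT mice, so a smaller size in another genotype is in part set by that choice.

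The difference of the VPA effect between genotypes was tested directly. For WT minus HZ 0 of 35556 probesets passed in limma (2754 at an unadjusted p of 0.05, smallest adjusted p 0.0746), and for WT minus KO 0 passed (974 at an unadjusted p of 0.05, smallest adjusted p 0.966). The smallest in the KO comparison was Ppard, whose effect was larger in WT mice by 0.92 (SE 0.22, unadjusted p = 9.52e-05 in limma). For Ppard over all genotypes, the study reported a VPA effect that varied with genotype, by array and by qRT-PCR. The count of 0 rests on adjustment over all probesets, so it does not show that the Ppard effect is equal in WT and KO mice. Without VPA replicate 7, the lowest of the VPA treated WT mice in Ppard, 1 probeset passed for WT minus KO. With only the 32 WT and HZ arrays in the fit, 12 passed for WT minus HZ. The clock index also differed among the saline treated groups, at -0.17 ± 0.43 in WT mice, -0.998 ± 0.163 in HZ mice and -0.52 ± 0.39 in KO mice (SD, 8 mice a group). With the index as a covariate, again 0 probesets passed in either comparison.

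**Figure D4:**
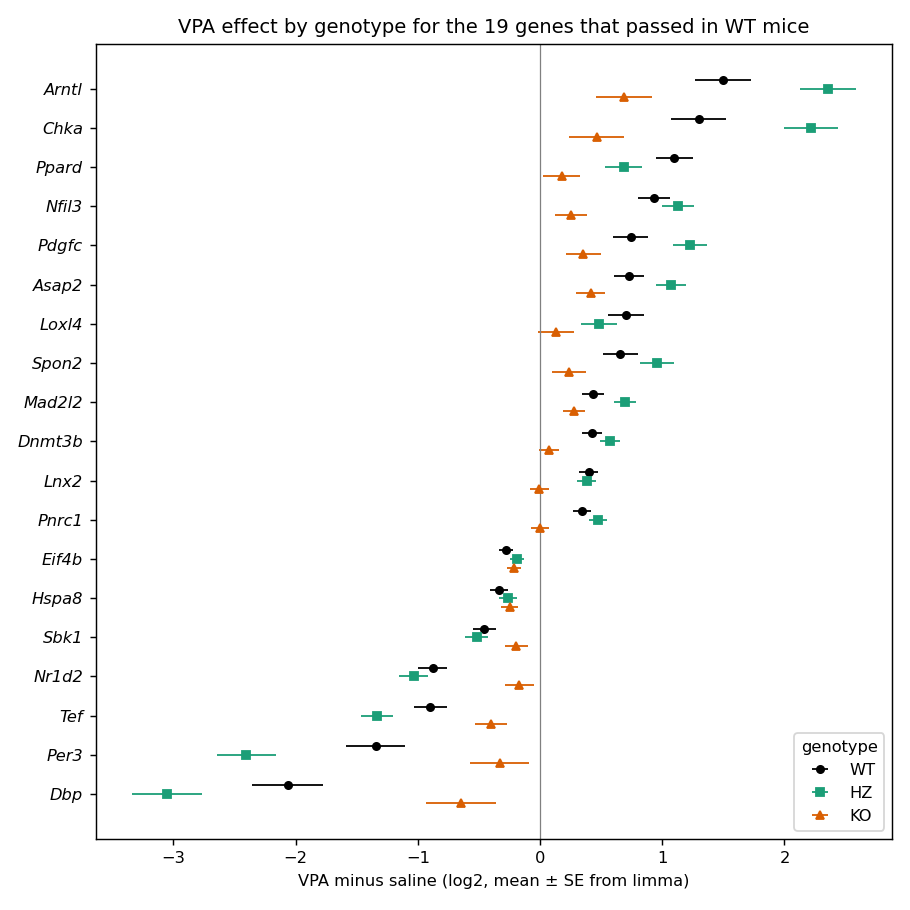
The difference between VPA and saline on the log2 scale is plotted for the 19 genes with 1 symbol that passed in WT mice, with the SE from limma as bars, in WT (black circles), HZ (green squares) and KO mice (orange triangles). WT effects run from -2.07 for Dbp to 1.50 for Arntl, and KO effects run from -0.65 to 0.69.

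Over all 19938 genes, 12 rose and 6 fell past the threshold. Besides the 3 clock lists, 24 lists of pathway genes held 1 gene that passed, Ppard. The share with an unadjusted p under 0.05 was 15.5% of their 329 genes, or 12.4% of 314 genes without the rhythmic output genes, against 6.14% of all genes. The median difference was -0.01 with or without them. Of 18 genes that take up, activate, oxidise or conjugate valproate and medium-chain fatty acids none passed and none had an unadjusted p under 0.05. Of 11 histone deacetylases none passed, with Hdac5 the largest at 0.22 (95% interval 0.08 to 0.37). In fatty acid synthesis none of 19 passed and all 5 at an unadjusted p under 0.05 had positive differences, with Pnpla3, a lipid droplet protein, at 1.09 (adjusted p = 0.669) and Acacb, an acetyl-CoA carboxylase, at 0.63 (adjusted p = 0.524).

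Of 14 genes of glucose metabolism and insulin signalling none passed. Pck1, the gluconeogenic enzyme, differed by -0.90 (95% interval -1.44 to -0.36, adjusted p = 0.302), with 10.05 to 13.04 in VPA treated mice and 12.12 to 13.19 in saline treated mice. Of 13 targets of the drug-sensing receptors CAR and PXR none passed. Cyp2b10, the classic CAR target, differed by 0.98 (95% interval 0.37 to 1.59, adjusted p = 0.347), and Nr1i3, which encodes CAR, by -0.43. Of 21 unfolded protein response genes none passed, with Herpud1 at -0.52 (adjusted p = 0.196), and of 14 heat shock genes none passed, with 11 negative differences and a median of -0.17. These genes were picked as extremes of their lists after their values were seen. The 10 genes named in the study's own VPA list come from probesets chosen on these samples, by an unadjusted p under 0.001 for VPA over all genotypes. Lypd1, listed there together with Gpr39, was read here on probeset 10357339, which that list does not hold, and not every listed probeset is covered. By the adjusted p used here none of the 10 genes passed in WT mice alone, with S100a10 at 0.28 (95% interval 0.04 to 0.52) and Efhd2 at -0.24. The threshold, the mice and in part the probesets differ, so this is no repeat of the study's test.

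**Figure D5:**
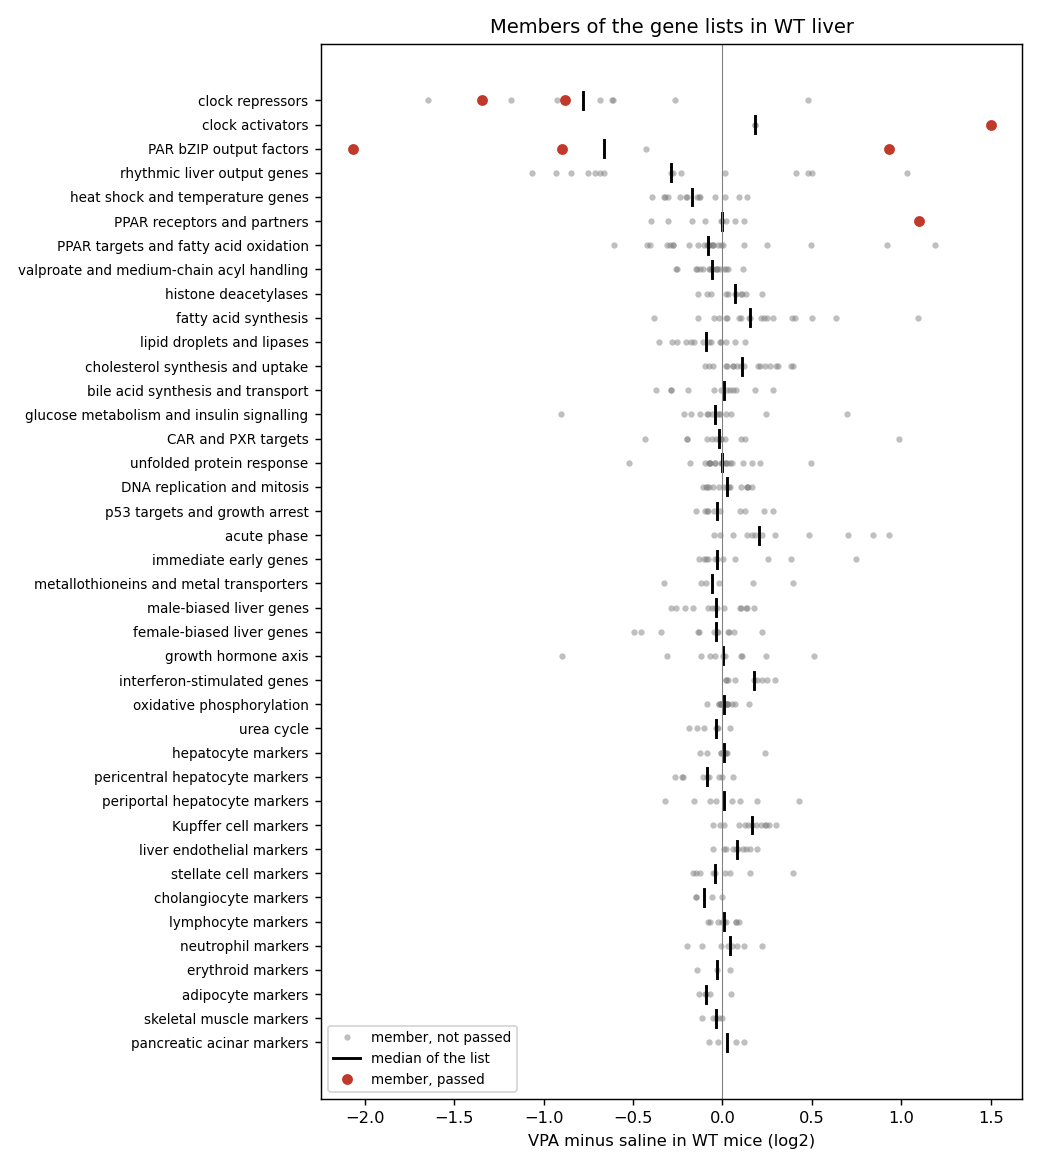
Differences between VPA and saline in WT mice on the log2 scale are plotted for each measured member of 40 lists, 1 row per list, with members that passed in red, other members in grey and the median of a list as a black bar. The 7 members in red are Arntl, Nfil3, Ppard, Nr1d2, Tef, Per3 and Dbp, and the list medians farthest from 0 are those of the clock repressors (-0.78) and the output factors (-0.66).

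The tissue was checked by marker genes. The 9 measured hepatocyte markers had a median level of 14.0 in VPA treated mice and 14.1 in saline treated mice, near the top of the scale of 14.8. Of 96 measured genes on 13 lists of cell type markers none passed, and 6.25% had an unadjusted p under 0.05, against 6.14% of all genes. Kupffer cell markers had a median difference of 0.16 and none of 13 had an unadjusted p under 0.05. Endothelial markers had a median difference of 0.08, again with none of 10. Whole liver was measured, so fewer cells of a type and less RNA per cell cannot be told apart. Array medians ran from 6.90 to 7.00 over the 16 arrays, no arrays held identical values, and correlations between arrays averaged 0.987 within and 0.987 between the treatments.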

How the data were processed

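Liver RNA (RIN 7 to 9) of 16 WT mice was measured on Affymetrix Mouse Gene 1.0 ST Arrays, 1 array per mouse, among 48 arrays of 6 groups. The authors processed the arrays with RMA, per the labels in Affymetrix Expression Console 1.1.2800.28061, and deposited log2 values, which were used without further normalization. RMA includes quantile normalization, so a shift of all genes in 1 direction would not be seen, and the number of arrays limits the precision. Genotype and treatment came from the labels.

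Group means of the 6 groups were fitted over all 48 arrays with limma 3.58.1 in R 4.3.3 (42 residual degrees of freedom, eBayes), with VPA minus saline in WT as the contrast and Benjamini-Hochberg adjustment over 35556 probesets. Passed means an adjusted p under 0.05. Folds are powers of 2 of the log2 difference. In total 11 genes were also tested by two-sided exact permutation over 12870 splits of the 16 mice (scipy 1.17.1 in Python 3.11.15, figures with matplotlib 3.10.9). They were Wfs1, Ppard and the genes that passed with the largest rises and falls. All but Wfs1 had passed on the same mice, so a small permutation p was in part set by that choice. The permutation p values printed for single genes are not adjusted over the 11 tests. Genes were named from the platform annotation updated to GRCm38.p6 where a probeset had 1 symbol (21789 probesets, with 1621 with several and 12146 unnamed here). In lists, 1 probeset stood for each gene. Named genes were those that passed with the largest changes, up to 15 per direction, filled up to 10 per direction by unadjusted p (Ppara, Lin52 and Stbd1, given as values only), list members that passed, all clock list members, Ppard, Wfs1 and the study's VPA list. Lin52 differed by -0.38 and Stbd1 by -0.58, and neither passed. The scripts were tested on simulated data.

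Members and lists were chosen with earlier results of these data known. The labels give each array a number (59 to 66 for VPA, 5 to 12 for saline) without saying what it means. Alternatives covered the arrays in the fit, array weights, the replicate number as a block, eBayes settings, median centring, filters, thresholds, a clock index covariate and leaving out each mouse.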

Additional observations from a re-analysis of the deposited data

Results flagged for a closer look

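In WT VPA treated mice, Per1 stood at 8.65 in replicate 8, far from the next highest mouse at 7.51, with the lowest at 6.83. Ppara stood at 10.82 in replicate 1, far from the next lowest mouse at 11.15, with the highest at 11.36. The gap to the nearest mouse was 0.629 of the range of the 8 mice for Per1 and 0.62 for Ppara, above the critical value of Dixon's test. These were 2 of 88 groups of 8 mice examined, and chance flags about 1 in 20 groups. Neither gene passed in WT mice.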

How the results depend on the processing

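The count of 25 probesets in WT mice (18 higher, 7 lower) was 14 with only the 16 WT arrays (12 shared), 49 with the replicate block (all 25 shared), 69 with array weights, 38 with only probesets of 1 symbol, 16 at an adjusted p under 0.01, 147 at an unadjusted p under 0.001 and 0 with the clock index as a covariate. Leaving out 1 mouse gave 17 to 77, the highest without saline replicate 1 (44 higher, 33 lower). Leaving out saline replicates 1 and 3, chosen after seeing the data, gave 75. It was 23 with median centring, 33 with a minimum mean of 5, 26 with trend and robust estimation and 36 with 1 probeset per gene. The cause of these shifts was not tested. With the covariate the difference of Ppard was 0.74 (adjusted p = 0.999 in limma), and it passed in every other fit run. The covariate turned the sign of 10 values, to 0.0867 for Per3, 0.94 for Per1, 0.27 for Per2, 0.13 for Cry2, 0.36 for Bhlhe40, 0.87 for Ciart, -0.23 for Clock, -0.0808 for Pcna, 0.23 for Efhd2 and 0.0242 for Foxk2. The count of 0 for WT minus HZ was 5 with the replicate block, 4 with array weights, 2 with only probesets of 1 symbol and 12 with only the 32 arrays of WT and HZ. Leaving out 1 mouse gave 0 to 3, with 3 without VPA replicate 5 and 1 without VPA replicate 8. The count of 0 for WT minus KO became 1 without VPA replicate 7 and stayed 0 with the other mice left out. Differences near 0 changed sign with 1 mouse left out and ran from -0.0246 to 0.0779 for Pcna, -0.0312 to 0.118 for Wfs1 and -0.0328 to 0.0407 for Lypd1. The numbers of the replicates were not read as pairs. Residuals of same-numbered arrays correlated by -0.353 to 0.224, with 3 of 8 pairs over 0.1, and 3 of 16 arrays were closest to their own number. These values bear on pairs and not on an order of the numbers. In saline treated WT mice the clock index was 0.64, -0.355, 0.27 and -0.07 in replicates 1 to 4. It was -0.59, -0.60, -0.34 and -0.34 in replicates 5 to 8. Whether the numbers follow an order was not tested. Under the block Ppara, Stbd1, Ciart and Hlf also passed. The number of mice and the spread among saline treated mice limit what can be detected.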

Other observations

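Further gene lists held no gene that passed in WT mice. Of 12 acute phase genes none passed (limma), with 10 positive differences and a median difference of 0.20. An unadjusted p under 0.05 was found for 1 of them (8.33%), against 6.14% of all genes. Orm2, an orosomucoid, ran from 9.26 to 11.27 in VPA treated mice and from 8.64 to 9.99 in saline treated mice, a difference of 0.84 (SE 0.41, adjusted p = 0.885). Lcn2, lipocalin 2, differed by 0.93 (95% interval -0.02 to 1.89), with 7.63 to 11.92 in VPA treated mice and 7.76 to 9.38 in saline treated mice, so the VPA treated mice reached both lower and higher.

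Bcl6, a repressor on the growth hormone list, differed by -0.89 (95% interval -1.67 to -0.12, adjusted p = 0.794), and Egr1, an immediate early transcription factor, by 0.75 (95% interval 0.02 to 1.48, adjusted p = 0.894). None of 18 cholesterol genes passed, with a median of 0.11, and none of 12 bile acid genes, with Cyp7a1, the rate-limiting enzyme of bile acid synthesis, at -0.37 (95% interval -0.89 to 0.15). None of 15 DNA replication and mitosis genes, of 18 oxidative phosphorylation genes or of 9 interferon-stimulated genes had an unadjusted p under 0.05. These single genes were chosen as extremes of their lists, or for their role, after their values were seen.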
